A study of Neurospora crassa with 22 samples.

Results

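The chitin synthases are the membrane enzymes that join UDP-N-acetylglucosamine into chitin, the fibrous polysaccharide of the fungal cell wall. In filamentous fungi they travel in small vesicles (chitosomes) to the hyphal tip and to the growing septum, and the family is divided into classes by sequence. Class V and class VII enzymes carry a myosin motor-like domain in front of the catalytic part, which the other classes lack. Nikkomycin Z is a substrate analogue that inhibits these enzymes.

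The 7 chitin synthase genes of Neurospora crassa were taken by identifier from the 10592 features of the count table. They are chs-1 (NCU03611, class III), chs-2 (NCU05239, class II), chs-3 (NCU04251, class I), chs-4 (NCU09324, class IV), chs-5 (NCU04352, class V), chs-6 (NCU05268, class VI) and chs-7 (NCU04350, class VII). They were chosen as a gene family and not by their levels, but with earlier results of these data known. In the NC12 annotation chs-5 and chs-7 are near neighbours with 1 gene, NCU04351, between them. No coordinates are given, because the build of the count table is not named in the sources used here. No sequence of the members is shown.

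RNA bound to the RNA-binding protein GUL-1, the homologue of yeast Ssd1, was collected from hyphae on beads that capture GFP (pull-down) and sequenced beside RNA of the whole extract (input). The tagged strain, of mating type A, carries Pccg1-gul-1-sgfp::his-3, so that the ccg-1 promoter drives the fusion GUL-1;;GFP, and its own gene is removed as hph::deltagul-1. The non-tagged strain is wildtype, with no GFP for the beads to hold. The levels of the fusion are therefore not those of the native gene, and the wild-type pull-down gives the background of the beads. Cultures were grown in Vogel's minimal medium with sucrose (Vs), without an agent or with 1e-05 M Nikkomycin Z over the last 1 h. Each pull-down group and each wild-type input group held 3 libraries, and each of both GUL-1-GFP input groups held 2, which makes 22 libraries.

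Levels are given as CPM, the counts of a gene relative to a fixed total of counts, after TMM scaling, a scaling that evens out differences in composition between libraries. The deposited counts summed to between 259583 and 28372176 per library, and protein-coding genes took from 0.189 to 0.671% of them in the GUL-1-GFP inputs, from 4.43 to 21.6% in the pull-downs of GUL-1-GFP, from 1.23 to 4.13% in the wild-type pull-downs and from 0.0227 to 1.54% in the wild-type inputs. The genes taken as hyphal markers, hex-1, actin and beta-tubulin, had counts in 21 libraries. The paper used beta-tubulin as its reference gene for expression, so its counts do not by themselves identify hyphae. Wild-type input replicate 3 of Vs held 59 protein-coding counts, and all members were at 0 in it.

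Libraries of both strains stood apart from their label in Vs. gul-1 was at 451 and 561 CPM in GUL-1-GFP pull-down replicates 2 and 3 but at 102 CPM in replicate 1, and it was at 22.5 CPM in wild-type pull-down replicate 2 and 13.2 CPM in replicate 3 against 3.98 CPM in replicate 1. With Nikkomycin Z it lay between 509 and 768 CPM in the GUL-1-GFP and between 1.92 and 4.03 CPM in the wild-type pull-downs. Transcripts of conidia, the asexual spores, set apart GUL-1-GFP pull-down replicate 1 and wild-type pull-down replicate 2 of Vs too, but not wild-type replicate 3. The summed level of the 3 conidial markers eas, con-10 and con-6 was 20.1 CPM in GUL-1-GFP pull-down replicate 1 of Vs, with all 3 detected, and 0.174 and 0.341 CPM in the other two, where con-10 and con-6 were at 0. It was 0.358 CPM in wild-type pull-down replicate 2 of Vs and 64.4 and 39.6 CPM in replicates 1 and 3. Most of these sums was eas, at 19.5 CPM in GUL-1-GFP replicate 1 and 61.5 and 39.2 CPM in wild-type replicates 1 and 3. con-10 was at 2.91 and 0.416 CPM in those wild-type replicates and at 0 in replicate 2. con-6 was at 0 in all wild-type pull-downs of Vs, so the sum largely describes 1 gene. With Nikkomycin Z the sum lay between 0.174 and 0.848 CPM in the GUL-1-GFP and between 17.5 and 29.2 CPM in the wild-type pull-downs. Results of Vs are therefore also given without GUL-1-GFP culture 1 and wild-type culture 2, which are 4 libraries, a choice made after seeing the data. Culture here means the pull-down and input of a strain and medium with the same replicate number. The pairing is assumed from these numbers and is not stated by the labels. The part of the conidial transcripts in the differences between the strains was not tested, and in such bulk extracts fewer cells of a type and less RNA per cell cannot be told apart.

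chs-5 and chs-7, the members with a motor-like domain, had the highest mean counts per kilobase of the family in all 8 groups, and with Nikkomycin Z they were the members called higher in the GUL-1-GFP than in the wild-type pull-down. Per kilobase of gene (introns included, NC12), chs-5 averaged 19.3 ± 3.0 CPM (SD, n = 3) and chs-7 10.1 ± 1.73 CPM in the pull-down of GUL-1-GFP with Nikkomycin Z. chs-1 followed at 1.82 ± 0.404 CPM, chs-4 at 0.844 ± 0.156 CPM and chs-3 at 0.736 ± 0.0684 CPM, and chs-2 was the lowest member with counts, at 0.144 ± 0.0286 CPM. chs-4 and chs-3 did not differ beyond their spread. In the wild-type pull-down with Nikkomycin Z the order per kilobase was chs-5 (2.18 ± 0.405 CPM), chs-7 (1.75 ± 0.174 CPM), chs-1 (1.50 ± 0.361 CPM), chs-3 (0.863 ± 0.177 CPM), chs-4 (0.817 ± 0.0263 CPM) and chs-2 (0.427 ± 0.0794 CPM). There the ranges of mean ± SD overlapped among chs-5, chs-7 and chs-1 and between chs-3 and chs-4. In single libraries the order could differ, and chs-1 was above both per kilobase in wild-type pull-down replicate 1 and input replicate 1 of Vs, and above chs-7 in wild-type pull-down replicate 2 and input replicate 1 with Nikkomycin Z. chs-6 had 0 counts in all 22 libraries and was not tested, so that 6 of the 7 members were among the 7114 features tested.

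**Figure D1:**
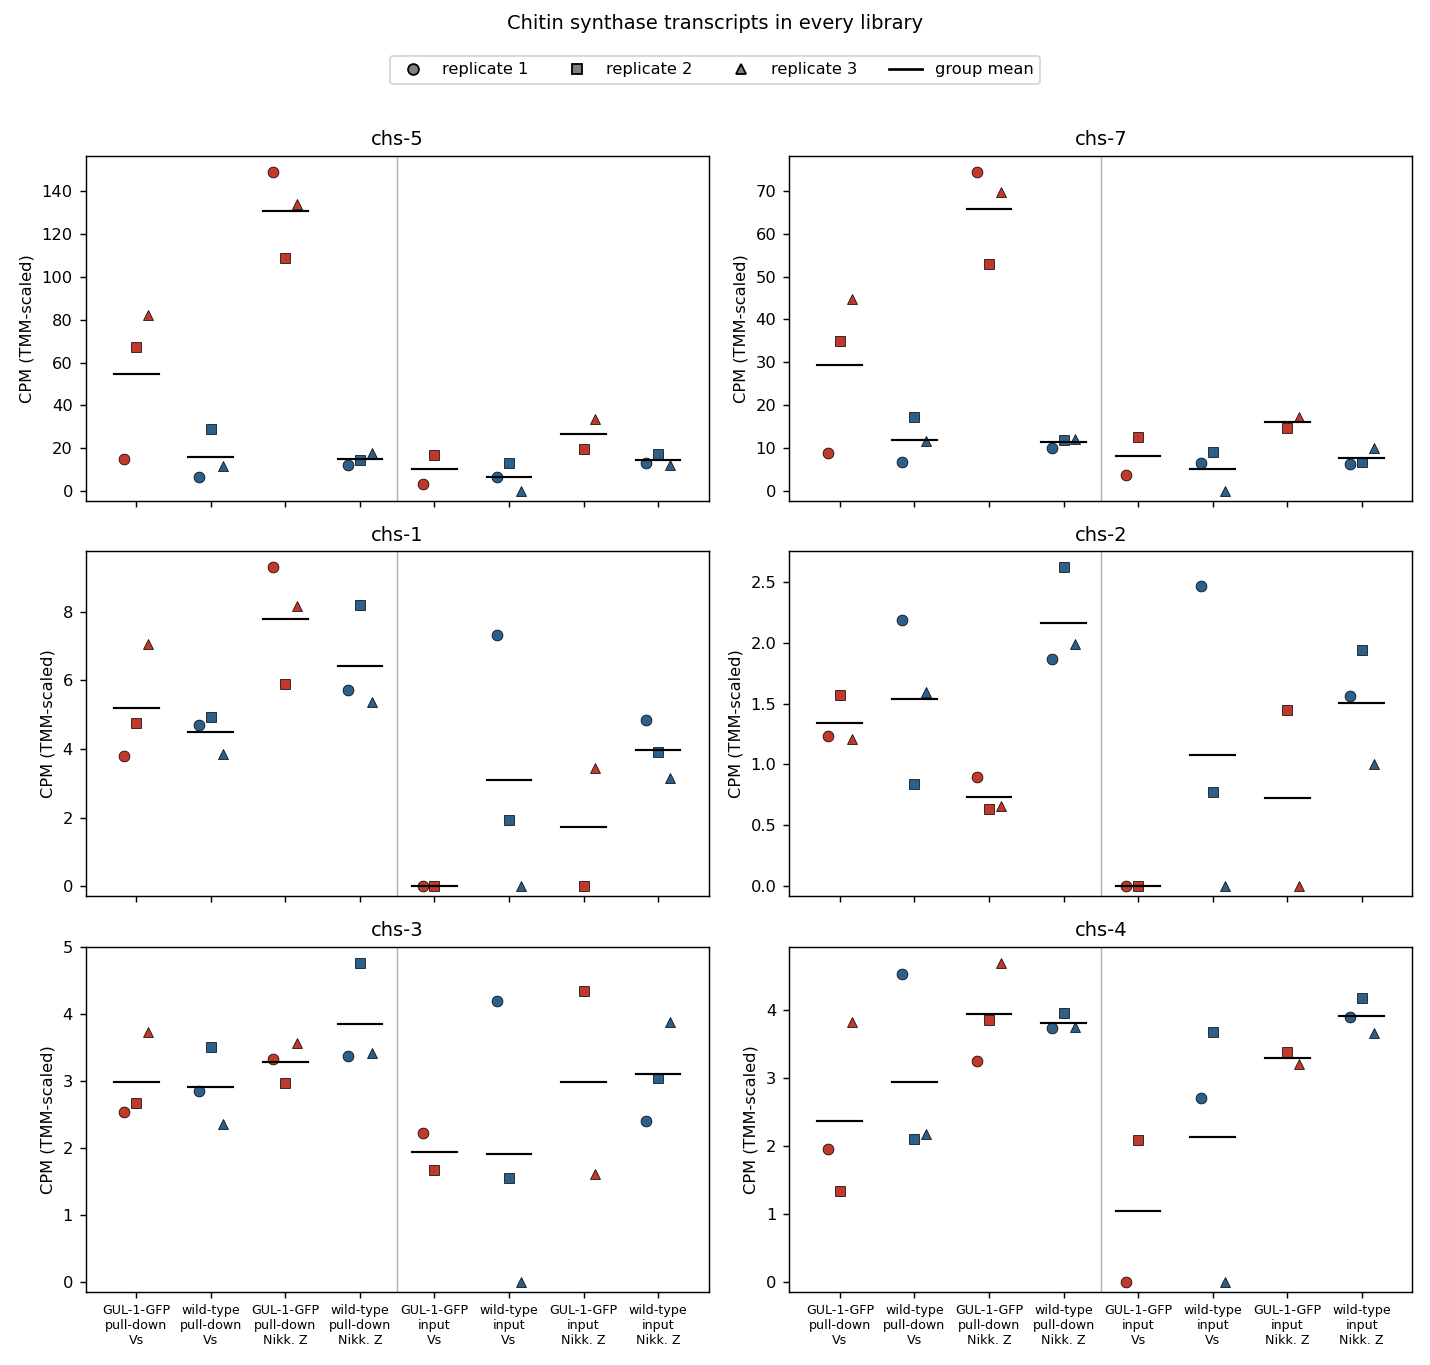
TMM-scaled CPM of the 6 chitin synthase genes with counts, one panel each with its own vertical axis, in the 8 groups of libraries (red, GUL-1-GFP; blue, wild-type; pull-downs left of the grey line, inputs right of it). Points are libraries and black lines are group means; the GUL-1-GFP pull-downs with Nikkomycin Z sit at 109 to 149 CPM for chs-5 and at 53.0 to 74.4 CPM for chs-7, above all wild-type libraries.

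The comparison of the pull-downs of the strains asks which transcripts differ on the beads with and without the tagged protein. It does not use the inputs, so differences between the extracts of the strains enter it too. chs-5 was at 149, 109 and 134 CPM in the pull-downs of GUL-1-GFP with Nikkomycin Z and at 12.2, 14.5 and 17.7 CPM in the wild-type pull-downs. The groups did not overlap, and the lowest GUL-1-GFP library was above the highest wild-type library. The difference was 8.84-fold, a log2FC of 3.14 ± 0.69 (SE; adjusted p = 0.00336 edgeR; adjusted p-values marked edgeR come from its quasi-likelihood test, adjusted by the Benjamini-Hochberg method over the 7114 features). chs-7 was at 74.4, 53.0 and 69.6 CPM against 10.1, 11.9 and 12.2 CPM, again without overlap. Its log2FC was 2.53 ± 0.60 (5.76-fold, adjusted p = 0.00632, edgeR). Of the 6 members tested, these 2 were called higher and none lower, where 7.11% of all features tested were called higher and 5.31% lower. The median log2FC of the members was 0.16 and that of all features -0.13.

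The other members lay near or below the level of the wild-type pull-down. chs-2 was at 0.898, 0.636 and 0.660 CPM in the GUL-1-GFP and at 1.87, 2.62 and 1.99 CPM in the wild-type pull-downs with Nikkomycin Z. These groups did not overlap either, with the wild-type higher, but the log2FC of -1.55 ± 0.63 was not called (adjusted p = 0.108, edgeR). It was called lower when only the 6 libraries of the comparison entered the fit (-1.53, adjusted p = 0.00134, edgeR). Without the 4 libraries of Vs it was -1.64. Those libraries are not in this comparison and reach it only through the shared fit, and they were left out after seeing the data. The log2FC was 0.28 ± 0.61 for chs-1, -0.22 ± 0.49 for chs-3 and 0.05 ± 0.55 for chs-4 (adjusted p = 0.808, 0.807 and 0.969, edgeR). chs-1 lay at 9.29, 5.89 and 8.16 CPM in the GUL-1-GFP and at 5.72, 8.20 and 5.37 CPM in the wild-type pull-downs, so that these groups overlapped.

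In Vs the same 2 members had the highest log2FC of the family, and whether they were called turned on the libraries that stood apart. chs-5 was at 14.8, 67.3 and 82.1 CPM in GUL-1-GFP pull-down replicates 1 to 3 and at 6.50, 28.9 and 11.7 CPM in the wild-type pull-downs. chs-7 was at 8.88, 34.9 and 44.7 CPM against 6.83, 17.3 and 11.6 CPM. For both genes GUL-1-GFP replicate 1, with the low gul-1 and the high conidial markers, was below wild-type replicate 2, with the highest gul-1 of the wild-type and the low conidial markers. Leaving those 2 libraries aside, the groups were apart.

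None of the 6 members was called between the pull-downs of Vs, where 2.59% of all features were called, all of them higher. The log2FC was 1.8 ± 0.66 for chs-5 (adjusted p = 0.255) and 1.31 ± 0.58 for chs-7 (adjusted p = 0.499, edgeR). These 2 members had an unadjusted p under 0.05, as did 7.41% of all features, and DESeq2 called 0 members as well. Without GUL-1-GFP culture 1 and wild-type culture 2 both were called, with a log2FC of 3.09 for chs-5 (adjusted p = 0.000128) and 2.16 for chs-7 (adjusted p = 0.00261 edgeR, remaining 18 libraries). The pull-downs left out were the lowest of GUL-1-GFP and the highest of the wild-type for both genes. They were chosen partly by gul-1, with which chs-5 and chs-7 varied (r of 0.802 and 0.800). The choice thus favours these calls, which are no independent support. Removing 1 library at a time left the log2FC of chs-5 between 1.43 and 2.59, with 0 members called each time. The other 4 members lay between -0.29 (chs-4) and 0.21 (chs-1), and their levels overlapped between the strains.

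**Figure D2:**
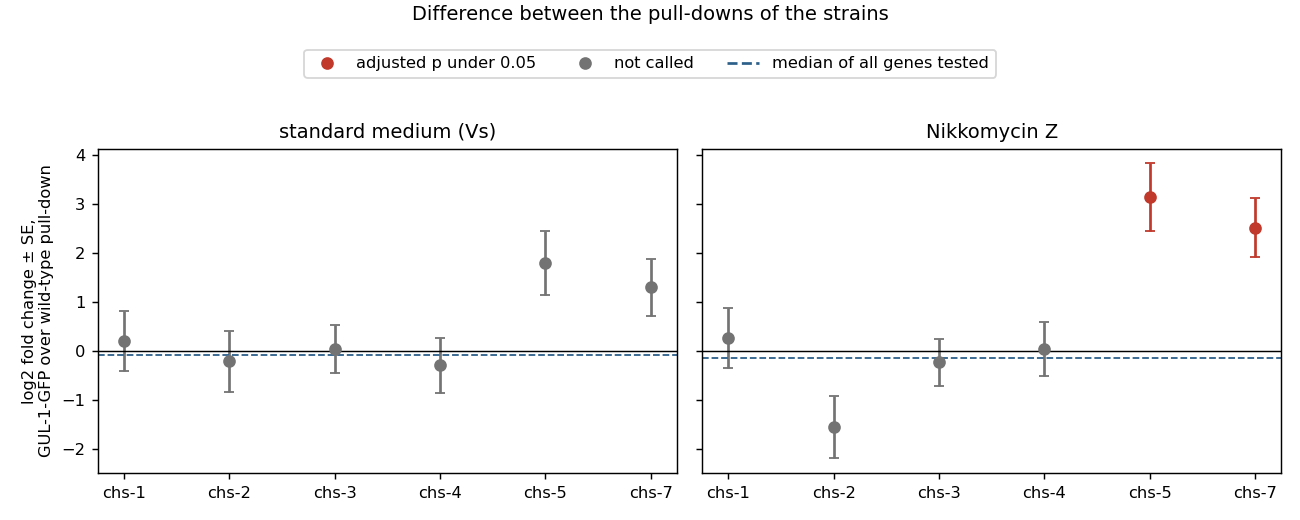
Log2 fold change of each tested chitin synthase gene in GUL-1-GFP over wild-type pull-down in Vs (left) and with Nikkomycin Z (right), from edgeR; error bars are 1 SE, red marks an adjusted p under 0.05 and the dashed line is the median of all features tested. chs-5 (3.14) and chs-7 (2.53) with Nikkomycin Z are the called points, and they are the highest of the family in Vs too, at 1.8 and 1.31.

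The make-up of the family within each library does not depend on any scaling between libraries. chs-5 and chs-7 together took 93.0, 92.4 and 92.3% of the counts on the 7 genes in the pull-downs of GUL-1-GFP with Nikkomycin Z (92.6 ± 0.409%, SD, n = 3) and 60.3, 57.4 and 67.3% in the wild-type pull-downs (61.6 ± 5.07%, SD, n = 3). The groups did not overlap, and the two-sided exact permutation test gave p = 0.1, the smallest p that 3 against 3 libraries allow. In Vs the share was 71.3, 90.8 and 88.9% against 48.3, 80.2 and 70.0% (exact permutation p = 0.2). Here again GUL-1-GFP replicate 1 and wild-type replicate 2 were the libraries on the other strain's side.

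Within the same libraries 16.0, 18.5 and 16.4 counts of chs-5 were found for each count of chs-1 in the pull-downs of GUL-1-GFP with Nikkomycin Z, and 2.13, 1.77 and 3.28 in the wild-type pull-downs. This ratio was not tested.

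**Figure D3:**
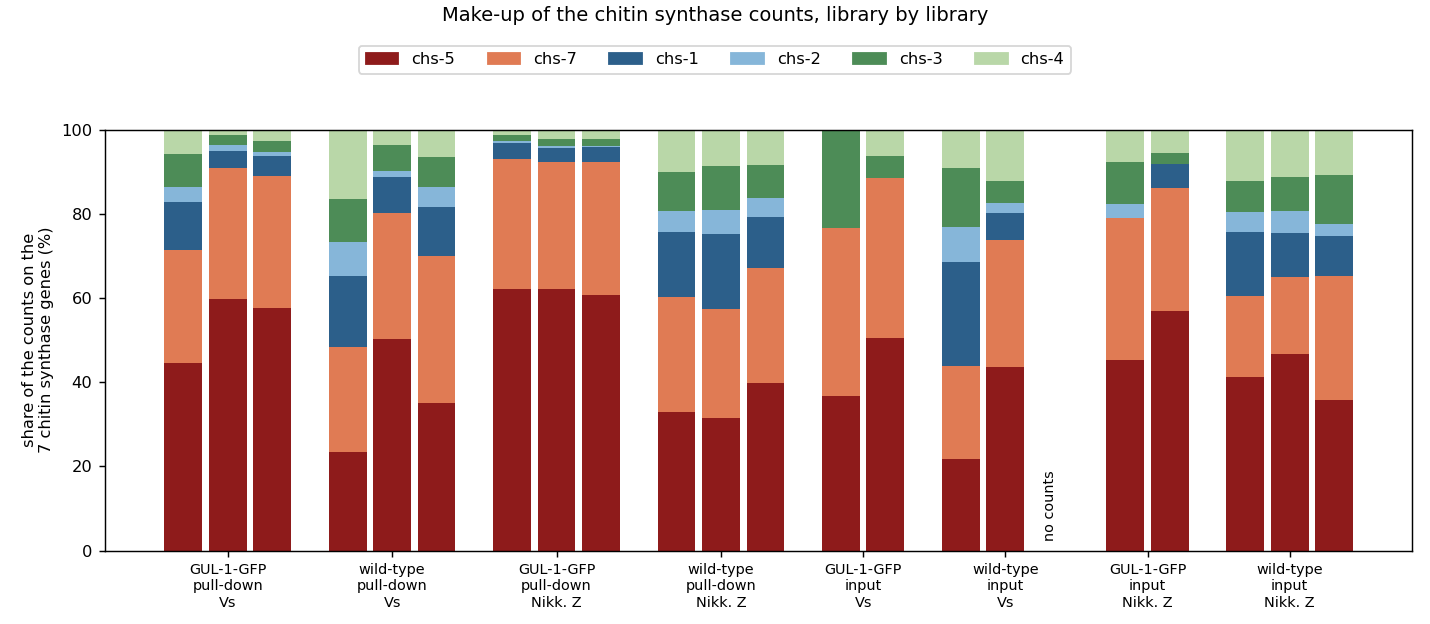
Share of the counts on the 7 chitin synthase genes that fell on each gene, as stacked bars in percent, one bar per library in replicate order within each group; chs-6 has no counts and wild-type input replicate 3 of Vs has none on any member. In the pull-downs of GUL-1-GFP with Nikkomycin Z chs-5 (dark red) and chs-7 (orange) fill 92.3 to 93.0% of the bar, against 57.4 to 67.3% in the wild-type pull-downs.

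Part of this pattern was present in the inputs. With Nikkomycin Z chs-5 was at 19.8 and 33.8 CPM in the GUL-1-GFP inputs and at 13.3, 17.5 and 12.1 CPM in the wild-type inputs, and chs-7 was at 14.8 and 17.2 CPM against 6.25, 6.87 and 10.0 CPM. Both genes were higher in each GUL-1-GFP input than in all of the wild-type inputs. The share of chs-5 and chs-7 in the counts of the family was 79.0 and 86.1% in the GUL-1-GFP and 60.6, 65.1 and 65.3% in the wild-type inputs (exact permutation p = 0.2, two-sided, the smallest that 2 against 3 libraries allow). In Vs the share was 76.7 and 88.6% in the GUL-1-GFP and 43.9 and 73.7% in those wild-type inputs that had counts, and the values of chs-5 were 3.48 and 16.7 CPM against 6.49 and 13.2 CPM.

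The pull-down over input comparison sets the level of a transcript on the beads, after scaling, against its level in the extract. With Nikkomycin Z, chs-5 had a log2FC of 2.29 ± 0.79 in pull-down over input of GUL-1-GFP (adjusted p = 0.0411) and chs-7 of 2.04 ± 0.69 (adjusted p = 0.0387, edgeR). chs-5 at 109 to 149 CPM in the pull-downs lay above both inputs, at 19.8 and 33.8 CPM, and so did chs-7. These 2 of 6 members were called higher and none lower, where 18.8% of all features were called higher and 0.45% lower. The call of both was lost without GUL-1-GFP input replicate 2 or 3 or without pull-down replicate 1 or 3 (0 members called, or 1 without input replicate 3, where chs-1 was called), and that of chs-5 without pull-down replicate 2 (2.40, adjusted p = 0.0522, edgeR).

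chs-1 had a log2FC of 2.16 ± 0.81 with Nikkomycin Z (adjusted p = 0.0611, edgeR). It had 0 counts in GUL-1-GFP input replicate 2 and 15 in replicate 3. chs-2, chs-3 and chs-4 stood at 0.04 ± 0.89, 0.15 ± 0.59 and 0.26 ± 0.67, and their sign changed with the processing. The median of the 6 members was 1.15, and all 6, the called ones included, lay under the median of all features, 3.69. In these inputs 8053 and 8002 of the 10592 features were at 0, where a fitted log2FC is not a measured size. The median of all features was 2.91 with protein-coding genes only and 1.89 with DESeq2. It therefore does not show that the members were held less than a typical transcript. Nor do the calls of chs-5 and chs-7, which lay under 3.69, show that they were held more.

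In Vs the GUL-1-GFP inputs held 30 and 158 counts on the whole family. chs-1 had 410, 82 and 413 counts in the pull-downs and 0 in both inputs (adjusted p = 0.00209, edgeR). Its pull-down mean was 6.60-fold a floor set at 3 counts per input library. chs-2, with 133, 27 and 71 counts in the pull-downs and 0 in the inputs, was at 1.70-fold this floor (adjusted p = 0.0180, edgeR). chs-5 had a log2FC of 2.42 ± 0.80 (adjusted p = 0.0355) and chs-7 of 1.83 ± 0.69 (adjusted p = 0.0628, edgeR). Of the 6 members 3 were called higher and none lower, where 18.2% of all features were called higher and 0.45% lower. The median of the members was 1.44 with chs-1 and chs-2 set against the floor and 2.13 as fitted. The fitted median of all features was 3.32, and 1.55 with DESeq2. chs-5 was called higher at 2.42, under the 3.32 of this fit. The call does not show that more of it was held than of a typical transcript. In these inputs 8075 and 7827 of the 10592 features were at 0, where a fitted log2FC is not a measured size.

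These calls rested on few input counts. In the inputs of GUL-1-GFP a value of 1 was rarer than values of 3 to 6, so that a sequenced fragment appears to be worth several counts. A floor of 3 counts may be less than 1 fragment, so folds over the floor are not lower bounds. The call of chs-2 was lost without either input (adjusted p = 0.0819 without replicate 1 and 0.133 without replicate 2) and that of chs-5 without input replicate 1, pull-down replicate 2 or pull-down replicate 3 (adjusted p = 0.230, 0.0645 and 0.151, edgeR). Without the 4 libraries, chs-1 alone was called. With the culture as a block, the call of chs-5 in Vs was lost (2.04, adjusted p = 0.0595), as was that of chs-7 with Nikkomycin Z (1.93, adjusted p = 0.0538, edgeR).

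The beads without the tag did not change the family detectably. In wild-type pull-down over input 0 of 6 members were called in Vs, where 0.45% of all features were called, and 0 of 6 with Nikkomycin Z, where 0% were. No member had an unadjusted p under 0.05 in either medium (13.4% of all features in Vs and 3.47% with Nikkomycin Z did), and DESeq2 called 0. With Nikkomycin Z, where all inputs held counts, the log2FC of the members ranged from -0.04 (chs-4) to 0.69 (chs-1), and chs-5 stood at 0.05 ± 0.64. In Vs the highest was 0.88 ± 0.69 for chs-5, and the nearly empty input is in that group.

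Whether the pull-down over input step was larger in GUL-1-GFP than in the wild-type was tested as the interaction of strain and fraction. With Nikkomycin Z it was 2.24 ± 0.99 on the log2 scale for chs-5 (adjusted p = 0.154) and 1.47 ± 0.87 for chs-7 (adjusted p = 0.293, edgeR). No member was called, where 9.28% of all features were, and chs-5 had an unadjusted p under 0.05, as had 25.1% of all features. DESeq2 called both, at 2.86 for chs-5 (adjusted p = 0.0135) and 2.04 for chs-7 (adjusted p = 0.0404). In edgeR chs-5 alone was called with the libraries of the comparison alone (1.85, adjusted p = 0.00636). Its value was also 1.85 without the 4 libraries of Vs. Those are not in this comparison and reach it only through the shared fit, and they were left out after seeing the data.

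In Vs the interaction was called for chs-1, 1 of 6 members where 2.21% of all features were called (adjusted p = 0.0223, edgeR). Its size is not a measured one, since both GUL-1-GFP inputs were at 0 and the wild-type inputs held 89, 10 and 0 counts. The call was lost without either GUL-1-GFP input, GUL-1-GFP pull-down replicate 3, wild-type input replicate 1 or wild-type pull-down replicate 3, and with the culture as a block (adjusted p = 0.151, edgeR). For chs-5 and chs-7 the interaction in Vs was 1.53 ± 1.02 and 1.05 ± 0.90 (adjusted p = 0.465 and 0.606, edgeR).

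Nikkomycin Z acts on the enzymes themselves, and the comparisons between media ask whether their transcripts changed with it. In the pull-downs of GUL-1-GFP chs-5 averaged 131 ± 20.3 CPM with and 54.7 ± 35.3 CPM without the drug (SD, n = 3), and chs-7 65.6 ± 11.2 and 29.5 ± 18.5 CPM. In both genes all 3 libraries with the drug were above all 3 without it. The log2FC was 1.26 ± 0.65 for chs-5 and 1.16 ± 0.57 for chs-7 (adjusted p = 1 for both, edgeR). None of the 6 members was called, where 0% of all features were, none had an unadjusted p under 0.05 against 4.23% of all features, and DESeq2 called 0.

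chs-2 was the member that ran the other way in the pull-downs of GUL-1-GFP, at 0.898, 0.636 and 0.660 CPM with the drug and 1.23, 1.57 and 1.21 CPM without it. Those groups did not overlap, and the log2FC of -0.85 ± 0.63 was not called (adjusted p = 1, edgeR). In the wild-type pull-downs the members lay between -0.09 (chs-5) and 0.52 (chs-1), 0 of 6 called where 0.0422% of all features were. In the wild-type inputs they lay between -0.14 (chs-1) and 0.75 (chs-5), 0 of 6 called where 0.998% were, with the nearly empty library on the side of Vs. No member had an unadjusted p under 0.05 in these tests of edgeR, as 11.6 and 17.2% of all features had, and DESeq2 called 0.

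The change with the drug was not shown to differ between the strains. The interaction of treatment and strain in the pull-downs was 1.34 ± 0.91 for chs-5 and 1.22 ± 0.80 for chs-7 (adjusted p = 0.650 and 0.641, edgeR), 0 of 6 members being called by edgeR or DESeq2 where 0.0281% of all features were called by edgeR, and none with an unadjusted p under 0.05 against 9.99% of all features. Without the 4 libraries of Vs the interaction of chs-5 was -0.05. The interaction of treatment and fraction in GUL-1-GFP was -0.13 ± 1.03 for chs-5 and 0.21 ± 0.92 for chs-7. No member was called there either, where 0.0141% of all features were, and chs-1 and chs-2, at 0 in the Vs inputs, had an unadjusted p under 0.05, as had 12.9% of all features. DESeq2 called 0.

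chs-5 and chs-7 varied together. Over the 22 libraries the level of chs-5 (log2 CPM) was more like that of chs-7 than that of any other feature tested, and the reverse held for chs-7, with a Pearson r of 0.987. These libraries share strains and cultures and differ in depth, so the value is a description. They include the nearly empty wild-type input replicate 3 of Vs, where all members were at 0. chs-5 and chs-7 had an r of 0.802 and 0.800 with gul-1, against 0.138 for chs-1, -0.08 for chs-2, 0.413 for chs-3 and 0.251 for chs-4. NCU04351, the gene between chs-5 and chs-7, had from 0 to 20 counts per library, and 0 in all wild-type libraries of Vs. With Nikkomycin Z it had 20, 8 and 12 counts in the wild-type pull-downs and 0 in all those of GUL-1-GFP. Unlike chs-5 and chs-7, it was called lower in that comparison (adjusted p = 0.0235, edgeR), as were 5.31% of all features.

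The features most like the remaining members were asd-1 for chs-1 (r = 0.986), NCU02152 for chs-2 (r = 0.966), NCU01540 for chs-3 (r = 0.959) and dot for chs-4 (r = 0.973), each over 22 libraries. The nearly empty library is among these, and chs-1 and chs-2 were also at 0 in both GUL-1-GFP inputs of Vs. The summed level of the 7 genes was most like aro-8 (r = 0.944), NCU02009 (r = 0.935) and NCU16318 (r = 0.920).

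**Figure D4:**
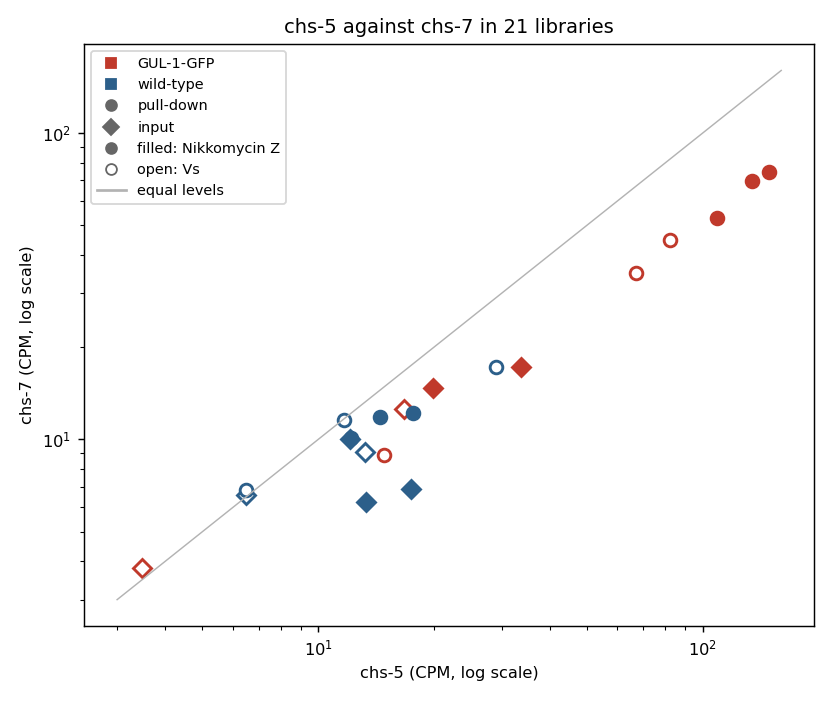
Level of chs-7 against chs-5 in the 21 libraries with counts on them, both axes in TMM-scaled CPM on a log scale (red, GUL-1-GFP; blue, wild-type; circles, pull-downs; diamonds, inputs; filled, Nikkomycin Z; open, Vs; grey line, equal levels). The libraries lie along 1 band that leaves the line of equal levels as the levels rise, with the GUL-1-GFP pull-downs at its upper end except for replicate 1 of Vs at 14.8 and 8.88 CPM.

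The other genes of the chitin pathway were 17 in number, of which 3 make the precursor, 4 move or activate chitin synthases and 10 encode chitinases. All of the first 7 were tested and 6 of the 10 chitinases. In GUL-1-GFP over wild-type pull-down with Nikkomycin Z, 1 of the 3 precursor genes, none of the 4 trafficking genes and 1 of the 6 chitinases were called higher, and none was called lower, where 7.11% of all features were called higher and 5.31% lower. The precursor gene was NCU02109, UDP-N-acetylglucosamine pyrophosphorylase, which makes the substrate of the synthases. It was at 7.40, 8.31 and 7.93 CPM against 1.94, 2.50 and 2.69 CPM, without overlap, at a log2FC of 1.73 ± 0.54 (adjusted p = 0.0345 edgeR; not called with protein-coding genes only, with total counts as library sizes, or with any 1 of the 6 libraries left out).

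The chitinase was chit-1 (NCU02184). It was at 5.04, 5.42 and 11.4 CPM in the GUL-1-GFP and at 0.216, 0 and 0 CPM in the wild-type pull-downs with Nikkomycin Z (adjusted p = 0.00175, edgeR). In Vs it followed the libraries that stood apart, at 0.566, 10.2 and 8.87 CPM in the GUL-1-GFP and 1.51, 5.41 and 2.89 CPM in the wild-type pull-downs, and none of the chitin genes of this list that were tested was called between the pull-downs there, where 2.59% of all features were. In pull-down over input of GUL-1-GFP chit-1 had no count in the 4 inputs (adjusted p = 0.0231 in Vs and 0.0173 with Nikkomycin Z, edgeR). Its pull-down mean was 8.29-fold the floor of 3 counts in Vs and 10.3-fold with Nikkomycin Z.

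Among the trafficking and activation genes, the chitin synthase export chaperone NCU05720 and the chitin synthase activator NCU02592 were called in pull-down over input of GUL-1-GFP in both media, where 18.2% and 18.8% of all features were called higher in Vs and with Nikkomycin Z. The export chaperone helps chitin synthase leave the endoplasmic reticulum, as known from yeast. With Nikkomycin Z the chaperone was at 690, 139 and 367 counts in the pull-downs and at 0 in both inputs. Its pull-down mean was 11.2-fold the floor of 3 counts, and that of the activator was 3.41-fold the floor. In Vs the chaperone had 7 and 0 counts in the inputs and a log2FC of 2.85 (adjusted p = 0.0251, edgeR). It was 1.71 and no longer called without input replicate 2 (adjusted p = 0.215, edgeR). The activator in Vs was at 2.09-fold the floor. Phosphoacetylglucosamine mutase NCU07458, an enzyme of precursor synthesis, was called in both media, at 2.05-fold the floor in Vs and 3.10-fold with Nikkomycin Z. The chitinase gh18-7 (NCU06020) was called with Nikkomycin Z, at 2.60-fold the floor. NCU05720, NCU02592 and chit-1 were also called in the interaction of strain and fraction with Nikkomycin Z, as were 9.28% of all features. The calls over input of NCU02592, NCU07458, gh18-7 and chit-1 were lost when either input was left out, and so were the interaction calls of NCU02592 and chit-1.

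The study searched transcripts for an 11-base motif. None of the 7 chitin synthases was among the 363 genes of its list that could be read here, which held 4.44% of the features tested, and the list is not complete. Of the other chitin genes 2 chitinases, gh18-4 (chromosome IV, not tested) and gh18-7 (chromosome VII), were in it. Their sites are shown as those of the chitin genes in that list, and each carries 1 mismatch to a complete motif, given in capitals, with positions counted from 1 at the 5′ end.
gh18-4, C9G: attcattcGtt
gh18-4, A1C: Cttcattcctt
gh18-7, T3C: atCcattcctt
gh18-7, C8G: agtcattGctt
The first 3 were compared with attcattcctt and the last with agtcattcctt. A match is a description of these letters and not of binding.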

How the data were processed

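RNA of GFP pull-downs and inputs was sequenced. The authors deposited counts per gene without normalization, here treated as estimated counts of whole number. The paper names Tophat and HTSeq and the submitters' processing notes list CASAVA 1.8.2, HISAT2 2.1.0 and StringTie 1.3.3b, and which made the counts is not given in the sources used here. Several counts per fragment seem likely from the low values, so shares of counts carry no interval. Both inputs of GUL-1-GFP in Vs are titled as pull-downs, and their fraction label was used.

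All 22 libraries entered 1 model of 8 groups in edgeR 4.0.16 (R 4.3.3), with TMM scaling, filterByExpr (minimum count 10), the quasi-likelihood test and Benjamini-Hochberg adjustment over 7114 features. A feature was called at an adjusted p under 0.05. Folds over groups at 0 were computed against 3 counts per library. Exact permutation tests used SciPy 1.17.1. Named genes were the 7 members in all comparisons, gul-1, the other chitin genes past the threshold in a pull-down comparison, and the features most correlated with each member and with their sum. The gh18 genes and chit-1 were found by symbol in NC12 (10590 of 10592 identifiers matched) once the table was in hand. The members and lists were chosen with earlier results of these data known. Pull-down and input with the same replicate number were taken as a pair from the same extract. Deviations from the group means of such pairs had an r of 0.202 to 0.345 in Vs and of 0.0135 to 0.0936 with Nikkomycin Z. The mean r was 0.161 for these pairs and -0.0808 for the other combinations. GUL-1-GFP pull-down replicate 3 and input replicate 2 of Vs, not a pair, had an r of 0.206. Centring on the group means itself pushes the other combinations below 0, so these values do not establish the pairing. Nothing in the sources used here describes all replicates as separate cultures, so p-values measure the spread between these libraries.

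Alternatives were TMMwsp, total counts as library sizes, DESeq2 1.42.0, no filter, protein-coding genes only, the libraries of the comparison only, and a block. The block was the culture in comparisons between pull-down and input, and the replicate number in the others. Further alternatives were each library left out, levels per kilobase and, added after seeing the data, 4 libraries of Vs left out. The procedure was tested on simulated data of 6301 genes, 200 of them changed by a log2FC of 4. Of these, 88% were recovered in the Vs comparison of GUL-1-GFP pull-down with input, with 3 false calls. Between the pull-downs of Vs 99% were recovered, with 10 false calls. The fitted log2FC of chs-5 and chs-7 in Vs was smaller, at 2.42 and 1.83 over input. Between the pull-downs it was 1.8 and 1.31. The percentages therefore do not give the power for the members, some of which had few or no input counts.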

Additional observations from a re-analysis of the deposited data

Results flagged for a closer look

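The interaction of strain and fraction in Vs was called for chs-1 (adjusted p = 0.0223, edgeR) by a test of the difference between the strains in the step from input to pull-down. Its size was not measured, since both GUL-1-GFP inputs were at 0, and the call was lost with the culture as a block (adjusted p = 0.151), with the comparison's libraries alone (adjusted p = 0.231) and without any 1 of GUL-1-GFP inputs 1 and 2, GUL-1-GFP pull-down 3, wild-type input 1 and wild-type pull-down 3. chs-1 had 410, 82 and 413 counts in pull-downs of GUL-1-GFP and 0 in both inputs, and 84, 124 and 268 counts in the wild-type pull-downs against 89, 10 and 0 in the inputs, the last from the nearly empty library. Between the pull-downs of the strains chs-1 had a log2FC of 0.21 ± 0.61 (adjusted p = 1, edgeR).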

How the results depend on the processing

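The 2 calls between the pull-downs with Nikkomycin Z, chs-5 and chs-7, were made under all alternatives and with each of the 6 libraries left out; their log2FC then ranged from 3.02 to 3.40 and from 2.44 to 2.68. Library sizes from total counts moved the median of all features in that comparison from -0.13 to 0.72, and chs-5 and chs-7 to 4.06 and 3.46; the same setting called 6 members in pull-down over input of GUL-1-GFP in Vs, with 5198 features called in place of 1330, and 2 in the interaction of strain and fraction of Vs. For pull-down over input with Nikkomycin Z the number of members called was 0 with protein-coding genes only, against 2. With the comparison's libraries alone it was 0 for pull-down over input in Vs and for the interaction in Vs, and 1 for the interaction with Nikkomycin Z, where DESeq2 called 2. Without the 4 libraries it was 1, 2 and 1 for pull-down over input in Vs, the pull-downs of Vs and the interaction with Nikkomycin Z. DESeq2's size factors rest on 23 features.

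With the culture as a block, 2 members were called in pull-down over input of GUL-1-GFP in Vs and 1 with Nikkomycin Z. Without the block these were 3 and 2. In the interaction of strain and fraction of Vs 0 members were called, against 1. Comparisons within pull-downs or within inputs had the replicate number as the block, shared across strains and media. No culture block was fitted for them. Neither block changed any other count of members called by over 1.5 times. Over all features the culture block moved the calls in pull-down over input of GUL-1-GFP from 1330 to 798 in Vs. With Nikkomycin Z they moved from 1369 to 895. Those of the interaction of strain and fraction moved from 157 to 38 in Vs and from 660 to 342 with Nikkomycin Z.

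With single libraries left out, the number of members called ranged from 1 to 4 in pull-down over input of GUL-1-GFP in Vs, from 0 to 1 with Nikkomycin Z, from 0 to 2 in the interaction of Vs and from 0 to 1 with Nikkomycin Z. The log2FC over input with Nikkomycin Z then ranged from -0.95 to 7.40 for chs-2 and from -0.38 to 1.06 for chs-3, that of chs-4 between the pull-downs with Nikkomycin Z from -0.0129 to 0.24, and that of chs-5 in wild-type pull-down over input with Nikkomycin Z from -0.13 to 0.22. Signs that turned, none of them called: over input with Nikkomycin Z, chs-2 was -0.21, chs-3 -0.10 with protein-coding genes only, chs-2 -0.40, chs-3 -0.29 and chs-4 -0.18 with the comparison's libraries, and -0.35, -0.24 and -0.14 without the 4 libraries. Between the pull-downs with Nikkomycin Z, chs-3 was 0.73 with total counts, and chs-4 -0.0054 with DESeq2, -0.23 with protein-coding genes only and -0.0425 without the 4 libraries, where the interaction of treatment and strain of chs-5 was -0.051. The causes were not tested. Levels per kilobase in place of CPM exchanged chs-3 and chs-4 in the order of the wild-type pull-down of Vs. Depth limits the inputs: the GUL-1-GFP inputs held 30 to 258 counts on the family.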
